A study of Homo sapiens with 2 samples.

Results

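Structural small RNA genes are short genes whose transcripts act as RNA, folded and bound to proteins. The 269 genes described here were chosen by symbol among the 40392 genes of the deposited tables. They are the genes of the small nuclear RNAs (symbols starting RNU), the snaR RNAs (SNAR-), the Y RNAs (RNY), the vault RNAs (VTRNA) and the 7SK and 7SL RNAs (RN7S), together with RMRP, RPPH1 and TERC. RefSeq types 206 of the 269 as pseudogenes. Only 30 of the 269 were listed above 0 in at least 1 library, and all 30 were listed above 0 in both.

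The RHCG library was made from KYSE30 cells stably transfected with a vector expressing human RHCG, and the mock library from KYSE30 cells stably carrying the pIRES2-EGFP vector. KYSE30 is an established line of esophageal squamous cell carcinoma, and RHCG encodes an ammonium transporter of the Rhesus glycoprotein family. Both libraries came from DNase-treated total RNA depleted of ribosomal RNA. The labels do not say whether the transfectants were pools or single clones. There was 1 library in each group and no replicate, so no test between groups exists, and every difference is between these 2 libraries.

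Small nuclear RNAs form the core of the spliceosomes: U1, U2, U4, U5 and U6 serve the major one, and U11, U12, U4atac and U6atac serve the minor one, which removes a rare class of introns. RMRP and RPPH1 are the RNA subunits of RNase MRP and RNase P, which cut precursors of ribosomal and transfer RNA, and TERC is the RNA template of telomerase. RNA polymerase III makes U6, U6atac, the Y, 7SK, 7SL, vault and snaR RNAs, RMRP and RPPH1, while RNA polymerase II makes the other snRNAs and TERC. snaR genes are primate genes in arrays of near-identical copies.

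The sequences of the vault RNA genes are shown because the 3 genes share most of their bases and gave different ratios. They are GENCODE 29 transcripts, each the single exon of its gene on the plus strand of GRCh38, at chr5:140711275-140711373 (VTRNA1-1), chr5:140718925-140719013 (VTRNA1-2) and chr5:140726158-140726246 (VTRNA1-3). Capitals mark the A box, searched as TAGCNNAGNGG, and the B box, searched as GTTCGANNCC, which are the internal promoter elements that RNA polymerase III factors read.
VTRNA1-1: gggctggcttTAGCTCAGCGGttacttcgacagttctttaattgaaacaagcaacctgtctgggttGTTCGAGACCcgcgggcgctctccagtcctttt
VTRNA1-2: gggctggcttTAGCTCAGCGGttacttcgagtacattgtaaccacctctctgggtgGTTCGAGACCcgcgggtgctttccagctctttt
VTRNA1-3: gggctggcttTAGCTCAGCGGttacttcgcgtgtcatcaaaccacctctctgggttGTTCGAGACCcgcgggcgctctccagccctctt
The A box lay at bases 11 to 21 in all 3, and the B box at bases 67 to 76 of VTRNA1-1 and 57 to 66 of VTRNA1-2 and VTRNA1-3. Of 3591 GENCODE small RNA transcripts of 60 to 160 bases, 0.251% held the A box and 0.139% the B box on either strand. VTRNA1-2 and VTRNA1-3 were identical at 79 of 90 aligned positions (87.8%), VTRNA1-1 and VTRNA1-3 at 83 of 100 (83.0%), and VTRNA1-1 and VTRNA1-2 at 81 of 99 (81.8%). Reads of one vault gene could therefore in part be assigned to another, depending on where in the transcript they fell.

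The minor spliceosomal snRNAs are shown because they made up 4 of the 5 measured RNU genes. Capitals mark matches to an Sm-like site, searched as A, then 4 to 6 T, then G, the kind of stretch around which the Sm protein ring closes. GENCODE 29 places each as a single-exon gene, RNU11 at chr1:28648600-28648733, RNU12 at chr22:42615244-42615393 and RNU4ATAC at chr2:121530881-121531007 on the plus strand, and RNU6ATAC at chr9:134164439-134164564 on the minus strand of GRCh38.
RNU11: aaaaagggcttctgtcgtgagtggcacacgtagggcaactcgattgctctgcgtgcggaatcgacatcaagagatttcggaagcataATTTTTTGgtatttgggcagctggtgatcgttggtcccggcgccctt
RNU12: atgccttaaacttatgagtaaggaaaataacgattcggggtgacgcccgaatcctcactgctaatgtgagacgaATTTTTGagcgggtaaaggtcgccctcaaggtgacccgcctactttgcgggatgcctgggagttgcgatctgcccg
RNU4ATAC: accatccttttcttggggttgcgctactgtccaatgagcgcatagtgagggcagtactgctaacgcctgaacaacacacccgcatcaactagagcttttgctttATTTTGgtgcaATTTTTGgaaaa
RNU6ATAC: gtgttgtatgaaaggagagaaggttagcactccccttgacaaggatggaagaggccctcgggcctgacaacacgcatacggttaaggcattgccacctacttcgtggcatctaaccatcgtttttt
RNU11 held 1 match at bases 88 to 95, RNU12 1 match at bases 75 to 81, and RNU4ATAC 2 matches, at bases 105 to 110 and 116 to 122. These letters were not found in RNU6ATAC. The same pattern occurred on either strand in 12.5% of the 3591 small RNA transcripts.

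For TERC the stretch around the template is shown, since it was the one gene outside the SNAR family that was lower by the 2-fold rule. The line gives bases 1 to 101 of the 541-base GENCODE transcript at chr3:169764520-169765060 on the minus strand of GRCh38, with the template for the telomere repeat, bases 46 to 56, in capitals.
TERC: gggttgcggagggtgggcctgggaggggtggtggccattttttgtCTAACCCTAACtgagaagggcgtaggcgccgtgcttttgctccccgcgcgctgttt

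Depth was read from the spacing of low values of SNAR, RNU, vault, small nucleolar and small Cajal body RNA genes. It was near 22100000 reads for the RHCG library and near 18900000 reads for the mock library. At a length of 121 bases, that of most SNAR-A copies, 1 RPKM (reads per kilobase of transcript, scaled to library depth) stood for about 2.67 reads in the RHCG library and 2.29 reads in the mock library. Depth therefore limited what could be said of the short, weakly listed members. The RHCG gene was listed at 413 RPKM in the RHCG library and at 0 in the mock library, as the labels have it. Of 8 genes chosen as markers of esophageal squamous carcinoma, 7 were listed above 0, with a summed level of 79.7 RPKM in the RHCG library and 158 RPKM in the mock library. The markers went both ways: KRT6A was at 3.51 RPKM in the RHCG library and 38.8 RPKM in the mock library, and DSG3 at 12.6 RPKM in the RHCG library and 7.01 RPKM in the mock library. KRT17, TP63, SOX2 and PERP also had less RPKM in the RHCG library than in the mock library, and KRT14 had more. KRT5, a defining marker, was listed at 0 in both libraries. None of the 4 columnar, 4 leukocyte or 4 endothelial markers was listed above 0, and 2 of 4 fibroblast markers summed to 1.44 RPKM in the RHCG library and 2.45 RPKM in the mock library. The part of these levels in the results was not tested, and in bulk RNA fewer cells of a type and less RNA per cell cannot be told apart.

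Ratios are log2((RHCG + 1)/(mock + 1)) in RPKM, and a ratio of 1 or more is called higher and one of −1 or less lower. Folds are plain RPKM ratios of RHCG over mock, with exact 95% counting intervals from the approximate reads. These intervals cover the counting error of reads only. Reads amplified by PCR are not independent molecules, so the intervals can be too narrow for counts of molecules. By this rule 1 of the 30 measured members was higher in the RHCG library, against 2.74% (352) of the 12857 genes measured, and 12 were lower, against 3.30% (424). With the ratio set to 0 at the median of the small nucleolar RNA genes, a shift of 0.27 log2, the split over all genes was 156 higher and 832 lower, so that 15.8% of the calls were higher, against 45.4% with the deposited scaling. The 30 members had −0.80 as their median, on the log2 scale, and all genes measured had −0.01. Of the members, 5 lay above 0 and 25 below, and the 25 include all 14 SNAR-A copies, which share reads. The 11 members outside SNAR had a median of −0.18, with 4 above 0 and 7 below. The 1 higher member was the vault RNA gene VTRNA1-3, and the 12 lower ones were 11 SNAR-A copies and TERC.

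**Figure D1:**
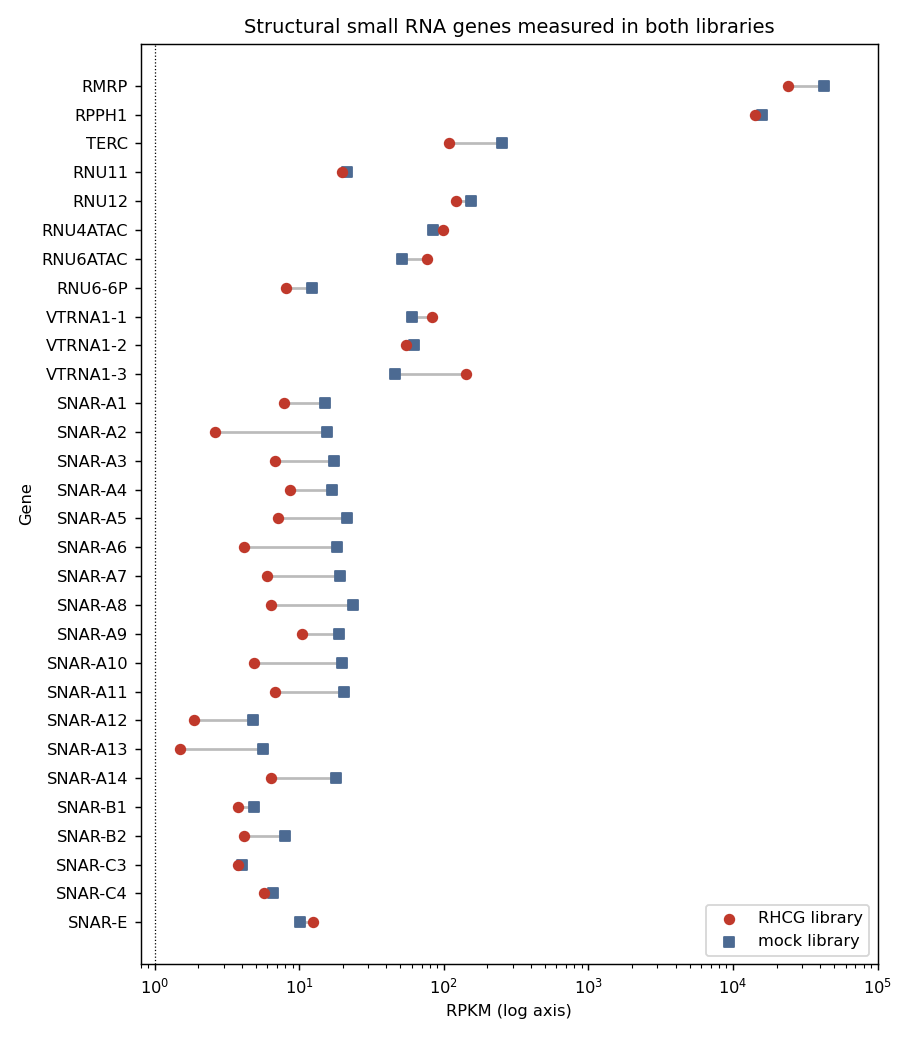
RPKM (log axis) of the 30 measured structural small RNA genes, with the RHCG library as circles, the mock library as squares and a line joining the 2 values of each gene. The levels span from 1.49 RPKM (SNAR-A13 in the RHCG library) to 42280 RPKM (RMRP in the mock library), and the SNAR-A circles all lie left of their squares.

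The families differed in how far they were measured at all. Among SNAR genes 19 of 28 were listed above 0, namely all 14 SNAR-A copies, both SNAR-B copies, SNAR-C3, SNAR-C4 and SNAR-E. All 4 genes of the minor spliceosomal snRNAs that are not pseudogenes (RNU11, RNU12, RNU4ATAC and RNU6ATAC) were measured, as were VTRNA1-1, VTRNA1-2, VTRNA1-3, RMRP, RPPH1 and TERC. By contrast 0 of the 14 U1, U2, U4, U5, U6 and U7 genes that are not pseudogenes had a value above 0 in either library. The same held for the 4 Y RNA genes RNY1, RNY3, RNY4 and RNY5, for RN7SK, for the 3 genes RN7SL1, RN7SL2 and RN7SL3, for VTRNA2-1, and for both RNU105 snoRNA genes.

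A 0 in both tables is not a measurement: it can stand for 1 RPKM or less, for no reads, or for a gene that was not counted, and the files do not tell these apart. The major spliceosomal snRNAs, 7SK and 7SL are among the most abundant RNAs of any human cell, so their 0 carries no information on these cells. RNVU1-2, a U1 variant gene whose symbol falls outside the rule, was listed at 5.41 RPKM in the RHCG library and 3.54 RPKM in the mock library. Apart from RNU6-6P, each of the 206 pseudogenes was listed at 0 in both libraries.

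Of the snaR genes, the SNAR-A copies as a group were lower in the RHCG library, while the SNAR-B, SNAR-C and SNAR-E genes were not called. Summed over the 14 SNAR-A copies, the level was 81.2 RPKM in the RHCG library and 234 RPKM in the mock library, 0.346-fold (interval 0.294 to 0.405), resting on about 217 reads in the RHCG library and 539 in the mock library. Every SNAR-A copy had a ratio below 0, the median being −1.44 on the log2 scale, and 11 of the 14 were lower by the 2-fold rule. Near-identical copies share reads, so the 14 values are not 14 separate observations. How reads that match several copies were counted is not given in the sources used here. Its part in the copies' values and in their sum was not tested. The intervals of sums take the reads of different copies as separate reads, and are too narrow if a read was counted at several copies.

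SNAR-A8, the copy with the highest mean level, was listed at 6.37 RPKM in the RHCG library (17 reads) and 23.6 RPKM in the mock library (54 reads), a log2 ratio of −1.74. SNAR-A9 was at 10.5 RPKM in the RHCG library (28 reads) and 18.7 RPKM in the mock library (43 reads). Its log2 ratio of −0.78 was the highest of the 14 copies and is not called. SNAR-A5 was at 7.12 RPKM in the RHCG library and 21.3 RPKM in the mock library, a log2 ratio of −1.46, and SNAR-A11 was at 6.74 RPKM in the RHCG library and 20.5 RPKM in the mock library, a log2 ratio of −1.47. SNAR-A2 had the lowest ratio, −2.20, with 2.60 RPKM in the RHCG library and 15.5 RPKM in the mock library. It rested on 7 reads in the RHCG library and 36 in the mock library, and its fold of 0.168 had an interval of 0.0627 to 0.380.

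The other 9 copies lay between these ratios, and the levels of all 14 ran from 1.49 to 10.5 RPKM in the RHCG library and from 4.76 to 23.6 RPKM in the mock library. The 2 ranges overlap across copies, but no single copy was higher in the RHCG library. Counting error alone leaves much room for single copies: the interval lay wholly below equality for 13 of 14, SNAR-A12 being the exception with 5 reads in the RHCG library and 11 in the mock library, and wholly below 0.5-fold for 4 of 14. SNAR-A12 was just past the 2-fold rule at −1.01 and is called lower, whereas SNAR-A4 (−0.90) and SNAR-A1 (−0.88) fell just short of it and are not called. Within a library, the highest copy was 7.06 times the lowest in the RHCG library (SNAR-A9 over SNAR-A13) and 4.95 times in the mock library (SNAR-A8 over SNAR-A12).

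**Figure D2:**
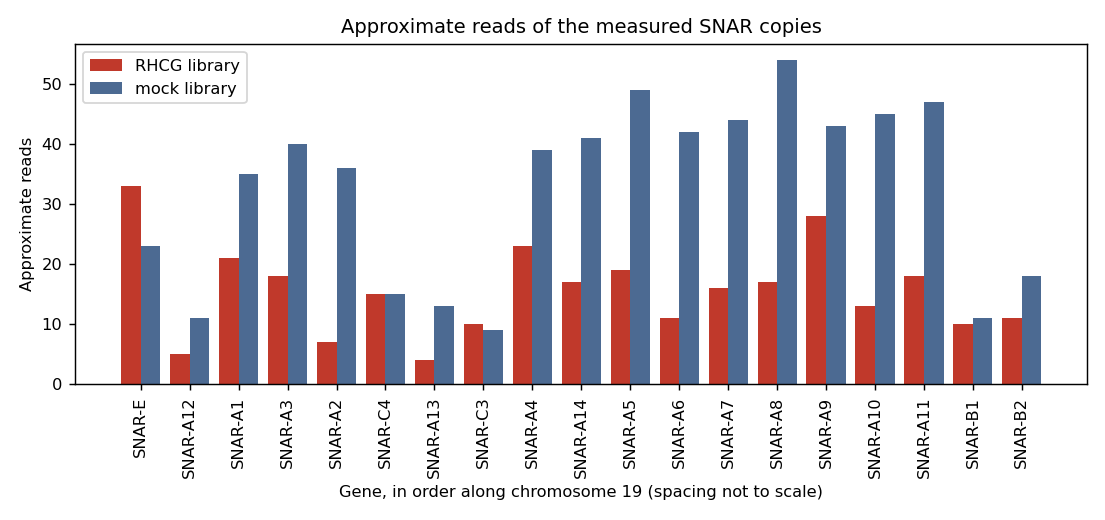
Approximate reads of the 19 measured SNAR genes in their order along chromosome 19 (spacing not to scale), with the RHCG library as the left bar and the mock library as the right bar of each pair. The 14 SNAR-A copies have 4 to 28 reads in the RHCG library and 11 to 54 in the mock library, whereas SNAR-E has 33 in the RHCG library and 23 in the mock library.

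The SNAR-A copies lie on chromosome 19 in 2 runs, one among the SNAR-C copies and one ahead of the SNAR-B copies, and both runs had nearly the same summed ratio. The 5 copies among SNAR-C genes summed to 20.5 RPKM in the RHCG library and 58.5 RPKM in the mock library, 0.350-fold (interval 0.251 to 0.482). The 9 copies next to the SNAR-B genes summed to 60.7 RPKM in the RHCG library and 176 RPKM in the mock library, 0.345-fold (interval 0.285 to 0.414). Near-identical copies of the 2 runs may share reads, so the 2 sums may not be separate observations. The protein-coding genes nearby differed more between the runs. The median log2 ratio of the 20 nearest measured protein-coding genes was −0.11 to −0.18 for the run among SNAR-C genes and −0.51 for the run next to SNAR-B. An alternative chosen after the data were seen subtracted the neighbours' median. With it, 7 SNAR-A copies were lower by the 2-fold rule in place of 11. The summed log2 ratio was then −1.285 in place of −1.47 for the run among SNAR-C genes, with −0.18 taken off. For the run next to SNAR-B it was −1.005 in place of −1.52, with −0.51 taken off. Over both runs it was −1.003 in place of −1.52, but there −0.51 was taken off the whole sum. That is too large a shift for the copies among SNAR-C genes. The part of the neighbouring shift in the SNAR-A result was not tested.

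The SNAR-B and SNAR-C copies lie among or next to the SNAR-A copies and rested on few reads. SNAR-B1 was at 3.78 RPKM in the RHCG library (10 reads) and 4.84 RPKM in the mock library (11 reads), and SNAR-B2 at 4.15 RPKM in the RHCG library (11 reads) and 7.90 RPKM in the mock library (18 reads). Their log2 ratios were −0.29 and −0.79, and that of SNAR-B2 was about as low as that of SNAR-A9. SNAR-C3 was at 3.74 RPKM in the RHCG library (10 reads) and 3.99 RPKM in the mock library (9 reads), and SNAR-C4 at 5.67 RPKM in the RHCG library and 6.60 RPKM in the mock library, with 15 reads in each. Summed, the 4 genes were at 17.3 RPKM in the RHCG library and 23.3 RPKM in the mock library, 0.743-fold, and the interval of 0.491 to 1.13 includes no difference. Taken apart, the SNAR-B sum was 0.622-fold with an interval of 0.337 to 1.13, which overlaps that of the SNAR-A sum, and the SNAR-C sum was 0.888-fold with an interval of 0.490 to 1.64. SNAR-E, a member at the start of the chromosome 19 group, was at 12.5 RPKM in the RHCG library (33 reads) and 10.1 RPKM in the mock library (23 reads), 1.23-fold with an interval of 0.702 to 2.20. It was the one SNAR gene of 19 with a ratio above 0.

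**Figure D3:**
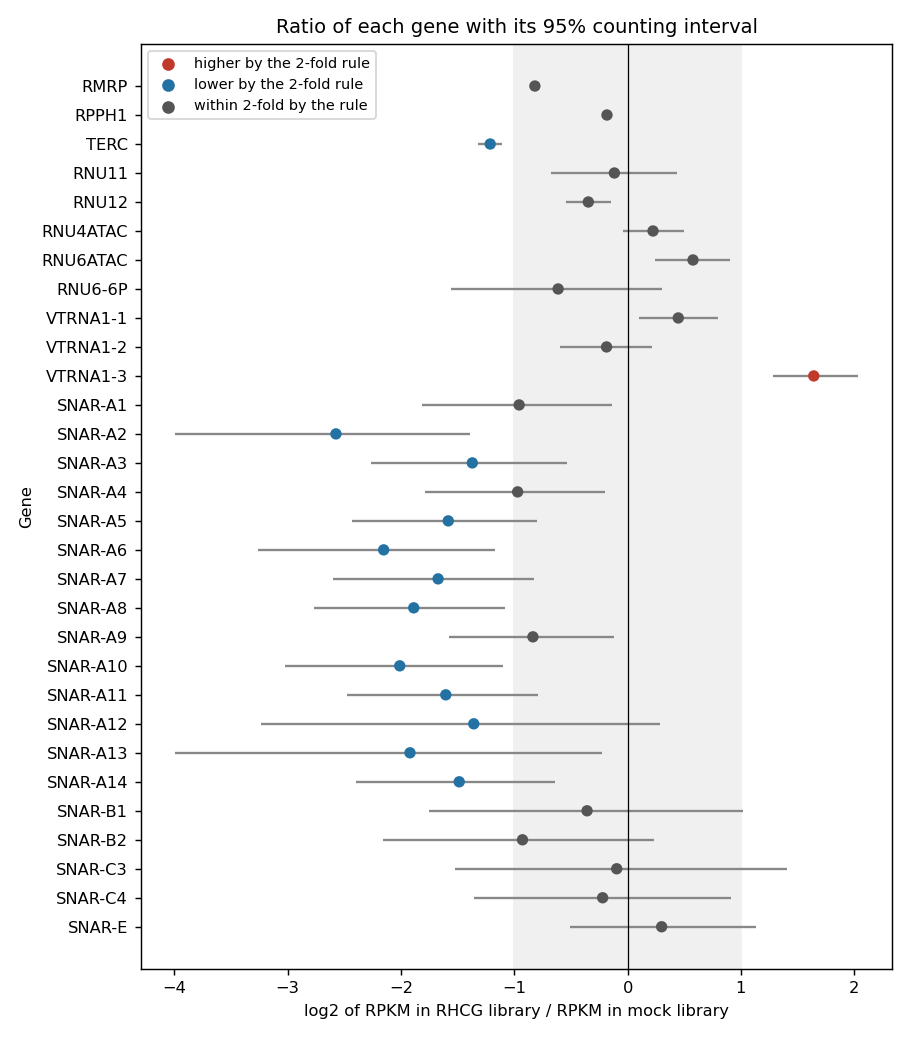
Log2 of the plain RPKM ratio of RHCG over mock for the 30 measured members, with exact 95% counting intervals as lines and the 2-fold range in grey. Colours give the call by the rule with 1 RPKM added, under which VTRNA1-3 is the one higher gene, and 11 SNAR-A copies and TERC are the 12 lower ones.

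The vault RNAs are parts of the vault particle, a large cytoplasmic ribonucleoprotein, and VTRNA1-1 is also known to bind the autophagy receptor SQSTM1. The 3 measured vault genes had unlike ratios. VTRNA1-3 was at 143 RPKM in the RHCG library (278 reads) and 45.8 RPKM in the mock library (76 reads), 3.12-fold with an interval of 2.43 to 4.10 and a log2 ratio of 1.62. VTRNA1-1 was at 82.5 RPKM in the RHCG library (178 reads) and 60.5 RPKM in the mock library (112 reads), 1.36-fold with an interval of 1.07 to 1.74. VTRNA1-2 was at 54.7 RPKM in the RHCG library (106 reads) and 62.2 RPKM in the mock library (104 reads), 0.879-fold with an interval of 0.661 to 1.16.

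The order of the 3 genes thus differed between the libraries. In the RHCG library VTRNA1-3 was the highest, at 2.61 times VTRNA1-2 and 1.73 times VTRNA1-1, whereas in the mock library it was the lowest, at 0.735 times VTRNA1-2 and 0.757 times VTRNA1-1. These ratios within a library do not depend on the scaling between libraries. The 3 genes sit together on chromosome 5, and the 20 nearest measured protein-coding genes had a median log2 ratio of −0.41, with 1 higher and 2 lower. With that median subtracted, VTRNA1-3 had a log2 ratio of 2.04, VTRNA1-1 one of 0.86 and VTRNA1-2 one of 0.23, above 0. Summed over the 3 genes, the level was 280.2 RPKM in the RHCG library and 168 RPKM in the mock library, 1.66-fold with an interval of 1.43 to 1.91. The log2 ratio of this sum was 0.73, and it was 1.15 with the neighbours' median subtracted and 0.46 when scaled to the small nucleolar RNA genes.

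Of the RNAs of the catalytic ribonucleoproteins, RMRP and RPPH1 were at the top of both tables and TERC was far below them, all on the per-length RPKM scale. RMRP was at 23979 RPKM in the RHCG library and 42280 RPKM in the mock library, 0.567-fold with an interval of 0.563 to 0.571. It ranked 3 among the genes listed in the RHCG library and 1 in the mock library, and took an estimated 0.647% of reads (exact 95% interval 0.644 to 0.651%) in the RHCG library and 1.14% (1.14 to 1.15%) in the mock library. Its log2 ratio of −0.82 is within the 2-fold rule, and scaled to the small nucleolar RNA genes it was −1.09, which is past it. RPPH1 was at 14080 RPKM in the RHCG library and 15972 RPKM in the mock library, 0.882-fold with an interval of 0.874 to 0.889. It ranked 8 in the RHCG library and 5 in the mock library.

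At these read numbers counting error is small, and the narrow intervals say nothing of how far separate cultures vary. RMRP stood at 1.70 times RPPH1 in the RHCG library and at 2.65 times RPPH1 in the mock library, a comparison free of the scaling between libraries. The median log2 ratio of the 20 nearest measured protein-coding genes was −0.14 for RMRP and −0.22 for RPPH1. With it subtracted, RMRP was at −0.68 and RPPH1 at 0.04.

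TERC was at 109 RPKM in the RHCG library (1087 reads) and 253 RPKM in the mock library (2162 reads). Its fold was 0.431 with an interval of 0.401 to 0.464, and its log2 ratio was −1.21. Its 20 nearest measured protein-coding genes had a median log2 ratio of −0.09, and TERC stayed lower by the 2-fold rule, at −1.12, with that median subtracted. TERT, the reverse transcriptase that uses TERC as template, was listed at 0 in both libraries and so was not measured.

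Of the minor spliceosomal snRNAs, none was called. RNU12, which pairs with the branch site, was at 122 RPKM in the RHCG library (403 reads) and 155 RPKM in the mock library (440 reads), 0.786-fold with an interval of 0.685 to 0.902. RNU11, which recognises the donor splice site, was at 19.7 RPKM in the RHCG library (59 reads) and 21.4 RPKM in the mock library (55 reads), 0.922-fold with an interval of 0.627 to 1.35. U11 and U12 enter the minor spliceosome as a single particle. In RPKM, RNU12 exceeded RNU11 by 6.18 times in the RHCG library and 7.25 times in the mock library. How evenly both RNAs were recovered in the libraries was not tested, so these need not be ratios of their amounts in the cells.

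RNU6ATAC, the catalytic snRNA, was at 76.0 RPKM in the RHCG library (211 reads) and 50.9 RPKM in the mock library (122 reads), 1.49-fold with an interval of 1.18 to 1.87. Its log2 ratio of 0.57 was 0.91 with the median of its neighbours subtracted and 0.30 when scaled to the small nucleolar RNA genes. RNU4ATAC, the pairing partner of U6atac before activation, was at 97.9 RPKM in the RHCG library (281 reads) and 83.8 RPKM in the mock library (206 reads), 1.17-fold with an interval of 0.975 to 1.41. Its log2 ratio of 0.22 turned to −0.05 when scaled to the small nucleolar RNA genes and to −0.28 with the median of its neighbours subtracted. RNU4ATAC was the one member within the span of another listed gene, CLASP1, which was at 11.5 RPKM in the RHCG library and 8.04 RPKM in the mock library. Whether the counting used strand is not given in the sources used here, so reads of overlapping genes cannot be told apart.

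Summed over the 4 genes, the level was 315 RPKM in the RHCG library and 311 RPKM in the mock library, 1.01-fold with an interval of 0.906 to 1.09. The sum's log2 ratio of 0.02 was −0.25 when scaled to the small nucleolar RNA genes. Within it, the U11 and U12 pair was at 0.803-fold (interval 0.704 to 0.911) and the U4atac and U6atac pair at 1.29-fold (interval 1.12 to 1.49). Scaled to the small nucleolar RNA genes, the log2 ratio of the U4atac and U6atac pair was 0.10 in place of 0.37, and that of the U11 and U12 pair −0.58 in place of −0.31. RNU6-6P was at 8.03 RPKM in the RHCG library (19 reads) and 12.3 RPKM in the mock library (25 reads), 0.654-fold with an interval of 0.340 to 1.23. Copies of U6 share reads, so its reads cannot be told apart from those of other U6 genes.

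Other kinds of small RNA gene in the same libraries had medians above 0. Scaled to the small nucleolar RNA genes, all of these medians but that of the C/D box genes lay below 0. The C/D and H/ACA box genes themselves set that scale, so their place about 0 follows in part from it. The 145 measured C/D box small nucleolar RNA genes, which guide ribose methylation, had a median log2 ratio of 0.32 (0.05 with that scaling), with 11 higher (7.59%, against 2.74% of all genes) and 4 lower (2.76%, against 3.30%). The 84 measured H/ACA box genes, which guide pseudouridylation, had a median of 0.08 (−0.13 with that scaling), with 2 higher (2.38%) and 0 lower. The 24 small Cajal body RNA genes, which guide modification of snRNAs, had a median of 0.09 (−0.19 with that scaling), with 1 higher (4.17%) and 0 lower. The 246 measured microRNA genes had one of 0.04 (−0.11 with that scaling), with 22 higher (8.94%) and 16 lower (6.50%). These are counts past a fold in 1 library against 1, with no test of a family against another. Read numbers of these short genes are not given here, and the part of counting error in their shares was not tested.

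**Figure D4:**
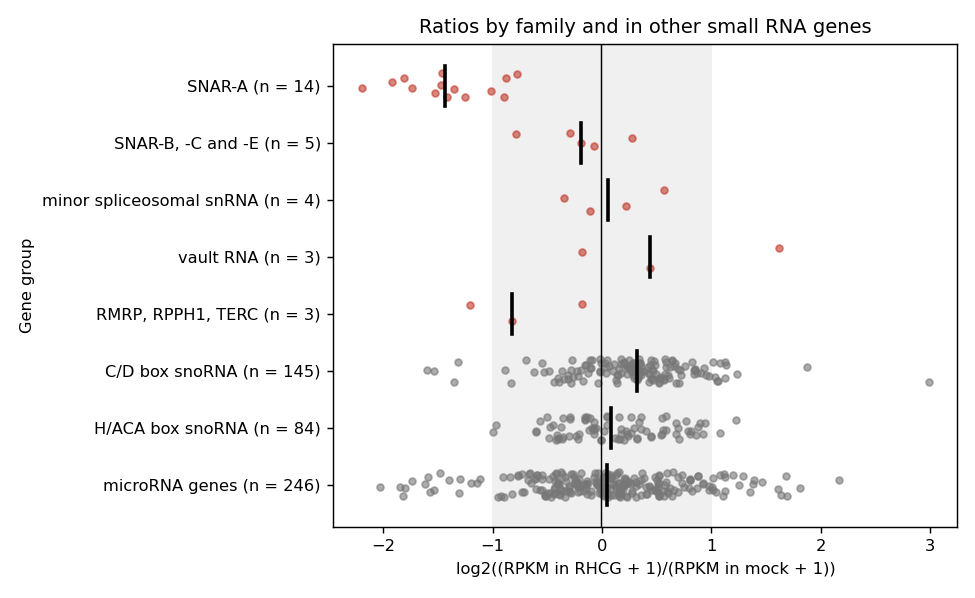
Log2((RHCG + 1)/(mock + 1)) in RPKM of single genes (points) and their median (bars) in groups of the members and in 3 other kinds of small RNA gene, with the 2-fold range in grey and RNU6-6P not drawn. The SNAR-A median lies at −1.44 and the C/D box small nucleolar RNA median at 0.32. Scaling to the small nucleolar RNA genes would move the points left by at most about 0.27, and genes at low levels by less.

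The proteins that make, process or bind these RNAs were read from 14 lists, of which 191 genes were measured. Of the 191, 3 were higher (1.57%, against 2.74% of all genes) and 5 were lower (2.62%, against 3.30%), and their median log2 ratio was −0.01. The medians of the lists ran from −0.19 to 0.28, and from −0.45 to 0.08 when scaled to the small nucleolar RNA genes, where 13 of the 14 were below 0. Both shares were near those of all genes measured.

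**Figure D5:**
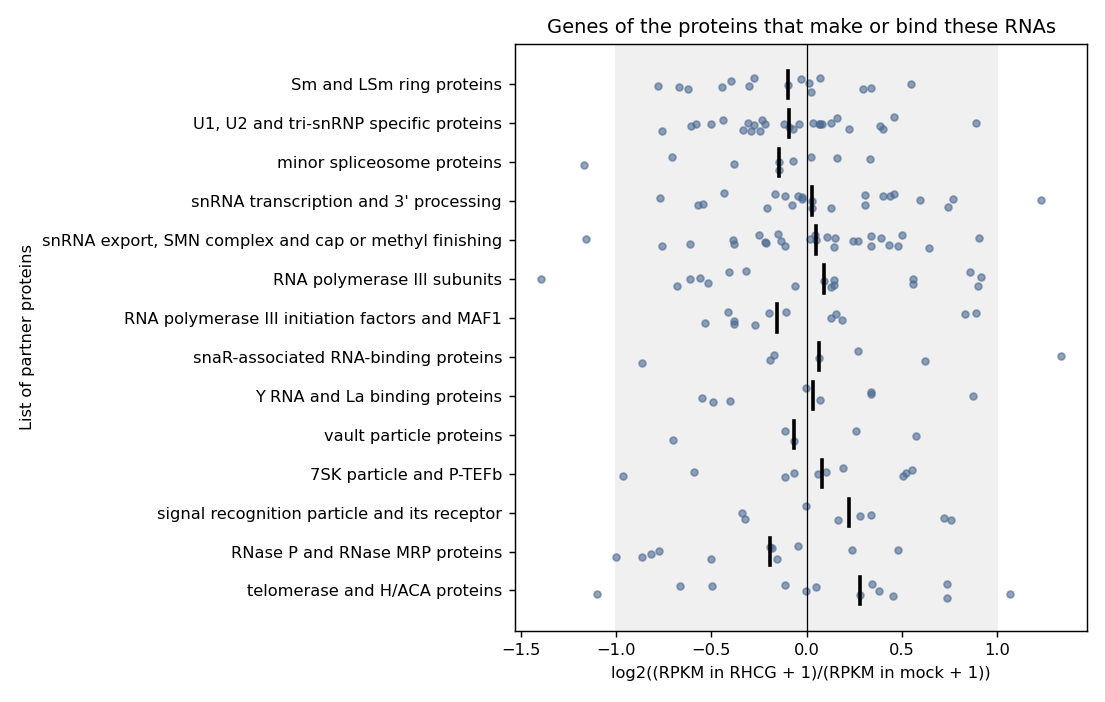
Log2((RHCG + 1)/(mock + 1)) in RPKM of the 191 measured partner genes (points) and the median of each of the 14 lists (bars), with the 2-fold range in grey. The medians lie between −0.19 and 0.28 (−0.45 and 0.08 when scaled to the small nucleolar RNA genes), and 3 points lie past the right edge of the grey range and 5 past the left.

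Among the spliceosomal lists, none of 15 Sm and LSm ring genes and none of 27 genes of U1, U2 and tri-snRNP proteins was called. SNRPB, a core Sm protein, was at 267 RPKM in the RHCG library and 263 RPKM in the mock library, while SNRPD2, another, was at 117 RPKM in the RHCG library and 155 RPKM in the mock library. SF3B2, of the U2 particle, was at 176 RPKM in the RHCG library and 133 RPKM in the mock library, and SNRNP70, of the U1 particle, was at 96.5 RPKM in the RHCG library and 119 RPKM in the mock library. Of 9 minor spliceosome genes, SNRNP35, a U11 and U12 particle protein, was lower, at 6.90 RPKM in the RHCG library and 16.7 RPKM in the mock library, a log2 ratio of −1.17. Of 23 genes of snRNA transcription and end formation, ZC3H8, of the little elongation complex, was higher, at 10.7 RPKM in the RHCG library and 4.0 RPKM in the mock library (1.23). Of 27 genes of snRNA export and assembly, PHAX, the export adaptor of capped snRNA, was lower, at 4.37 RPKM in the RHCG library and 10.98 RPKM in the mock library (−1.16).

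Of 17 RNA polymerase III subunit genes 1 was lower, POLR2L, which all 3 nuclear RNA polymerases share. It was at 43.0 RPKM in the RHCG library and 115 RPKM in the mock library, a log2 ratio of −1.40. None of 12 genes of initiation factors was called, a list that holds MAF1, the repressor of RNA polymerase III, at 70.1 RPKM in the RHCG library and 102 RPKM in the mock library, and GTF3C5, of factor TFIIIC, at 54.1 RPKM in the RHCG library and 70.8 RPKM in the mock library. Of 7 genes of snaR-associated RNA-binding proteins, PRKRA, an activator of the kinase PKR, was higher, at 22.8 RPKM in the RHCG library and 8.42 RPKM in the mock library (1.34). The 5 genes of the vault list held no call, and MVP, the major vault protein, was at 44.0 RPKM in the RHCG library and 46.1 RPKM in the mock library. SRSF2, a splicing factor on that list, was at 45.3 RPKM in the RHCG library and 74.3 RPKM in the mock library (−0.70).

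The RNase P and RNase MRP list had the lowest median, −0.19, with 9 of 11 genes below 0. Of these POP7 was lower, at 30.2 RPKM in the RHCG library and 61.5 RPKM in the mock library (−1.002). The telomerase and H/ACA list had the highest median, 0.28, over 13 measured genes. In it DKC1, the pseudouridine synthase dyskerin that stabilises TERC, was higher, at 116 RPKM in the RHCG library and 54.8 RPKM in the mock library (1.07). WRAP53, which takes telomerase RNA to Cajal bodies, was lower, at 5.82 RPKM in the RHCG library and 13.6 RPKM in the mock library (−1.10). The 8 genes of Y RNA and La binding proteins, the 10 of the 7SK particle and P-TEFb and the 8 of the signal recognition particle and its receptor held no call, with medians of 0.03, 0.08 and 0.22. Among them NCL, the nucleolar protein nucleolin, was at 370 RPKM in the RHCG library and 292 RPKM in the mock library, and PTBP1, a splicing regulator, at 115 RPKM in the RHCG library and 152 RPKM in the mock library. CDK9, the kinase of P-TEFb, was at 51.1 RPKM in the RHCG library and 53.6 RPKM in the mock library, and MEPCE, which caps 7SK, at 26.4 RPKM in the RHCG library and 28.7 RPKM in the mock library. SRPRA, a subunit of the signal recognition particle receptor, was at 68.7 RPKM in the RHCG library and 40.2 RPKM in the mock library, and SRP9, a protein of the particle itself, at 57.9 RPKM in the RHCG library and 45.7 RPKM in the mock library.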

How the data were processed

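The labels gave 1 RHCG library and 1 mock library of rRNA-depleted total RNA. The authors deposited 1 table per library under the header RPKM, whose values are log2 of RPKM, as found from the values. The submitters' processing notes name hg19 and bedtools 2.25.0, and which aligner and counting steps were used is not given in the sources used here. Copy rows (112 of 40448) were summed to 40392 genes, and 38047 had a RefSeq symbol.

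Values were unlogged, genes listed at 0 in 1 library were set to 1 RPKM, and log2((RHCG + 1)/(mock + 1)) was taken with the deposited scaling. A gene past 2-fold was called. The minimum mean of 1 RPKM removed no gene, since every listed gene passes it. Depth was recovered from low values of SNAR, RNU, vault, small nucleolar and small Cajal body RNA genes. At that depth SNAR values fell within 0.05 reads of whole numbers for 18 of 19 genes in the RHCG library and 12 of 19 in the mock library. Read numbers are therefore approximate, and no count test was run. Intervals are exact Clopper-Pearson at 95%. For sums they are on summed reads, taken as separate even where copies may share them.

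Lengths, symbols and gene order came from RefSeq GRCh38.p14, and sequences from GENCODE 29. Members and lists were chosen with earlier results of these data known. Every measured member could be named, with the 4 highest levels and the highest and lowest ratio of the 14 SNAR-A copies. Of each partner list up to 4 called genes, or else up to 2 of the most abundant, could be named. SNAR-A12, SNAR-A4 and SNAR-A1 were named after their values were seen, as the copies next to the threshold. The rules were tested on simulated data. The work was done in Python 3.11.15 with Biopython 1.88, scipy 1.17.1, pandas 2.3.3, numpy 2.4.6 and matplotlib 3.10.9. Alternatives were pseudocounts, filters, scalings, copy rows, the value given to a 0, and a 1.5-fold rule.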

Additional observations from a re-analysis of the deposited data

How the results depend on the processing

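No paired analysis was possible because each group held a single library, and for the same reason none could be omitted in turn. Over all genes, 533 were higher and 673 lower with a pseudocount of 0.1 RPKM, 156 and 832 when scaled to the small nucleolar RNA genes, and 1447 and 1481 by a 1.5-fold rule, against 352 and 424 as reported. VTRNA1-3 was the 1 higher member under each setting, the shift of neighbouring genes included. The same 12 lower members were called with the other pseudocount and with median-of-ratios scaling. Dropping the filter, taking the row with the highest total or setting genes listed at 0 to 0 RPKM left every member as it was, since none was filtered, had a copy row or was listed at 0 in 1 library. Scaling to the small nucleolar RNA genes and the 1.5-fold rule each kept those 12 and added RMRP, SNAR-A1, SNAR-A4, SNAR-A9 and SNAR-B2, which makes 17. With the shift of 20 neighbouring genes removed, chosen after the data were seen, 8 were lower, and SNAR-A5, SNAR-A11, SNAR-A12 and SNAR-A14 were lost. Of 222 values of members, families and lists under the 4 settings that could move members, 183 moved by at most the arm of their counting interval (for a list, the median interval of its genes). The other 39 moved further, among them the medians of all 14 lists when scaled to the small nucleolar RNA genes. None of the called values changed sign. Depth limits single SNAR copies, which rest on 4 to 54 reads, and with 1 library per group no difference can be set against the spread between cultures.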
